A study of Homo sapiens with 18 samples.

Results

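The genes described here are the clustered histone genes as they appear in polyadenylated RNA. They are the rows of the deposited count table whose symbol begins with HIST1H to HIST4H followed by a histone type (H1, H2A, H2B, H3 or H4), with at least 10 counts in 3 or more of the 18 libraries. Of 73 rows with such a symbol, 42 met the count rule: 3 genes for H1, 10 for H2A, 14 for H2B, 6 for H3 and 9 for H4. The table held 25369 gene symbols in all, 14850 of them were tested, and all 42 histone genes were among those tested. The genes of cluster HIST1 on chromosome 6 made up 34 of the 42, with 5 from HIST2 and 2 from HIST3 on chromosome 1, and HIST4H4 on chromosome 12.

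RNA came from D458 and D425, established cell lines of Group 3 medulloblastoma, a childhood tumour of the cerebellum. D458 cells carried EYA2 shRNA#7 (sh7), EYA2 shRNA#8 (sh8) or a non-targeting control shRNA, and D425 cells carried EYA2 shRNA#6 (sh6), EYA2 shRNA#8 (sh8) or the same kind of control. EYA2 encodes a transcriptional coactivator and phosphatase. All 18 cultures, controls included, were transduced, kept in puromycin at 1 µg/mL for 48 h, sorted for the top 10% of zsGreen fluorescence and left for 24 h, and each of the 6 groups had 3 replicates, called biological in the series' text. Libraries were strand-specific and poly(A)-enriched, and library totals ran from 21260369 to 31552051 counts.

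Histone proteins package DNA: H2A, H2B, H3 and H4 form the nucleosome core, and H1 binds the linker between cores. Most clustered histone genes are transcribed during S phase, and their mRNAs normally end in a conserved stem-loop in place of a poly(A) tail, which the stem-loop binding protein SLBP recognises. Some of these genes also give polyadenylated transcripts, which are known from cells that leave the cell cycle or differentiate. Poly(A) enrichment keeps such transcripts and removes most of the stem-loop form, so the counts below are not a measure of total histone mRNA.

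The stem-loop is the feature that sets these mRNAs apart, and it is shown here because its place in the annotated transcript separates the 2 ends a histone gene can use. The letters GG, any 2 bases, CTTTT, any base, AG, any 2 bases and CC, in that order, were searched on the sense strand of the GENCODE release 29 transcripts (GRCh38). They were found in transcripts of 22 of the 42 genes, against 52 of 19669 protein-coding genes (0.264%), of which 31 were named HIST. The 22 genes held 5 different versions of the 16 bases, and 1 gene of each is printed with HIST2H2BE and HIST1H2BG, which rose with hairpins. Capitals mark the 16 bases of the stem-loop.
HIST3H2A: taaaGGCTCTTTTCAGAGCCacctac
HIST2H2BE: caaaGGCTCTTTTCAGAGCCacccac
HIST1H2BG: caaaGGCTCTTTTCAGAGCCactcaa
HIST1H2BD: caaaGGCTCTTTTAAGAGCCacgcat
HIST2H2BC: caaaGGCTCTTTTCAGGGCCatttaa
HIST1H4H: caaaGGCCCTTTTCAGGGCCgcccac
HIST1H4I: aaaaGGCCCTTTTTAGGGCCcctaag
The first version, shared by HIST3H2A, HIST2H2BE and HIST1H2BG, stood in 11 genes of types H2A, H2B and H3. The version of HIST1H4H stood in 5 genes, all of type H4, that of HIST1H2BD in 3 H2B genes, that of HIST2H2BC in 2 genes and that of HIST1H4I in 1. In HIST2H2BE the printed transcript of 2194 nt ran on for 1729 nt after the stem-loop, in HIST1H2BG for 1059 nt and in HIST3H2A for 390 nt. A gene without a match lacks these letters in its annotated transcripts only, which for HIST1H2BK are 381 nt and for HIST1H1C 642 nt long. The poly(A) signal AATAAA lay within the last 60 bases of a transcript of 13 of the 42 genes, and 11 of these 13 also had the stem-loop letters.

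Counts for several of these genes are uncertain because histone genes are copies of each other, and how the authors' counting treated reads that match several places is not given in the sources used here. Of all 50-base windows of its transcripts, a gene shared at least 50% with another gene in 8 of the 42 cases: HIST1H2AI, HIST1H2AJ, HIST1H2AM, HIST1H2BK, HIST1H3D, HIST1H4J, HIST1H4K and HIST2H3D. For HIST1H2AM and HIST1H3D the shared windows come from exons that overlap another gene on the same strand, HIST1H3J and AL031777.3, and for the other 6 they lie in copies elsewhere. HIST1H2BN likewise overlaps HIST1H2AL on the same strand. HIST1H2BK shared 74.1% of its windows with other genes and 61.4% with H2BFS alone, and its counts are uncertain for that reason. The pairs HIST2H2AA3 and HIST2H2AA4, HIST2H3A and HIST2H3C, and HIST2H4A and HIST2H4B shared at least 97.1% of their windows, and all 6 genes had 0 counts in every library. Exons of HIST1H2BN and HIST1H2AK overlap on opposite strands, as do those of HIST2H2BF and FCGR1A, and HIST2H2BC is annotated as a transcribed pseudogene opposite HIST2H2BD. Whether the counting used strand is not given, so these pairs are uncertain too.

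Promoter sequence could be matched for 35 of the 42 genes in RefSeq promoters (GRCh38.p14), taken as the 250 bases before the start and the 50 after it. The TATA box TATAAA stood on either strand in 24 of the 35, against 12% of all promoters of that length, and the CCAAT box CCAAT in 28, against 35.7%. The octamer ATTTGCAT, bound by POU factors, stood in 13, against 1.8% of all promoters. It was found in 6 H2A genes, 6 H2B genes and 1 H3 gene. CCAAT was found in 1 of 8 H4 genes, against 9 of 9 for H2A and 10 of 10 for H2B. The promoter of HIST2H2BE is printed because it holds all of these motifs and is shared with the H2A gene HIST2H2AC, whose start lies 236 bases away in the other direction. That of HIST1H3E is printed because this H3 gene rose with both D458 hairpins. Only the 250 bases before the start are printed. Capitals mark the motifs on either strand, and no motif overlapped another kind in them.
HIST2H2BE, chr1:149886683-149886932, minus strand: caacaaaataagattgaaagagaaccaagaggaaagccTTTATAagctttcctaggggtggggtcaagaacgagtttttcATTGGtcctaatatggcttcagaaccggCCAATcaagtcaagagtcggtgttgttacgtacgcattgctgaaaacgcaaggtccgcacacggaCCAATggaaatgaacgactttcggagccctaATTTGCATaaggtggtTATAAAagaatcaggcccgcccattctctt
HIST1H3E, chr6:26223928-26224177, plus strand: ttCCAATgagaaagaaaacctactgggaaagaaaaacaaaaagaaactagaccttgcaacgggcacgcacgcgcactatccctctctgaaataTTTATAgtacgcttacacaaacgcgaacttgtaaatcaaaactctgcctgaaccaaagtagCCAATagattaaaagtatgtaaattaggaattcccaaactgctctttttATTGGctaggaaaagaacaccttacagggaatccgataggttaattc

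Few genes carried most of the counts. HIST1H2BK took 29.95% of all counts of the 42 genes, HIST3H2A 11.6%, HIST1H1C 10.8%, HIST1H2BD 8.57%, HIST2H2BE 7.17% and HIST1H2AC 6.63%, together 74.7%. These are shares of counts, which also grow with transcript length. Levels below are CPM, counts scaled to a common library size and corrected by TMM, and in this unit 22 genes averaged under 1 CPM, and 20 genes had 10 or more counts in every library. At the edge of the count rule, HIST1H4B reached 10 counts in 3 libraries, while HIST1H2AB, HIST1H2BB and HIST2H2AB reached it in 1. Of the 31 rows outside the rule, 13 had no count in any library and the highest single count was 13.

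EYA2 was read first as a check of the labels. It stood at 47.5, 51.9 and 45.1 CPM in D458 sh7 libraries and 18.2, 23.5 and 19.3 CPM in D458 sh8 libraries, against 73.7, 67.5 and 69.8 CPM in D458 controls. In D425 it stood at 15.1, 10.7 and 9.72 CPM with sh6 and 17.5, 12.04 and 12.7 CPM with sh8, against 43.6, 24.6 and 15.5 CPM in controls. D458 hairpin libraries all lay below their controls, while in D425 sh8 replicate 1 lay above control replicate 3. The edgeR log2 change was -0.55 ± 0.26 (adjusted p = 0.137) for D458 sh7, -1.79 ± 0.27 (adjusted p = 0.000506) for D458 sh8, -1.24 ± 0.27 (adjusted p = 0.00693) for D425 sh6 and -0.98 ± 0.27 (adjusted p = 0.0170) for D425 sh8. The errors of log2 changes are standard errors here and below.

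Replicate 1 of the D458 groups stood apart from replicates 2 and 3 in the summed level of the histone genes. The 42 genes summed to 295, 149 and 171 CPM in D458 sh7 libraries (replicates 1, 2 and 3) and to 342, 145 and 152 CPM in D458 sh8 libraries, against 165, 110 and 113 CPM in D458 controls. Within each number the hairpin libraries lay above the control, but the sums of the groups overlapped, since control replicate 1 exceeded replicate 2 of both hairpins. Per the labels, replicate 1 carried an earlier date than replicates 2 and 3, which shared 1 date, and libraries of 1 number shared a tag in their description. In D425 the sums were 162, 145 and 154 CPM with sh6 and 206, 142 and 192 CPM with sh8, against 155, 197 and 156 CPM in controls, and these groups overlapped. In RNA of whole cultures, fewer cells of a type and less RNA per cell cannot be told apart.

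**Figure D1:**
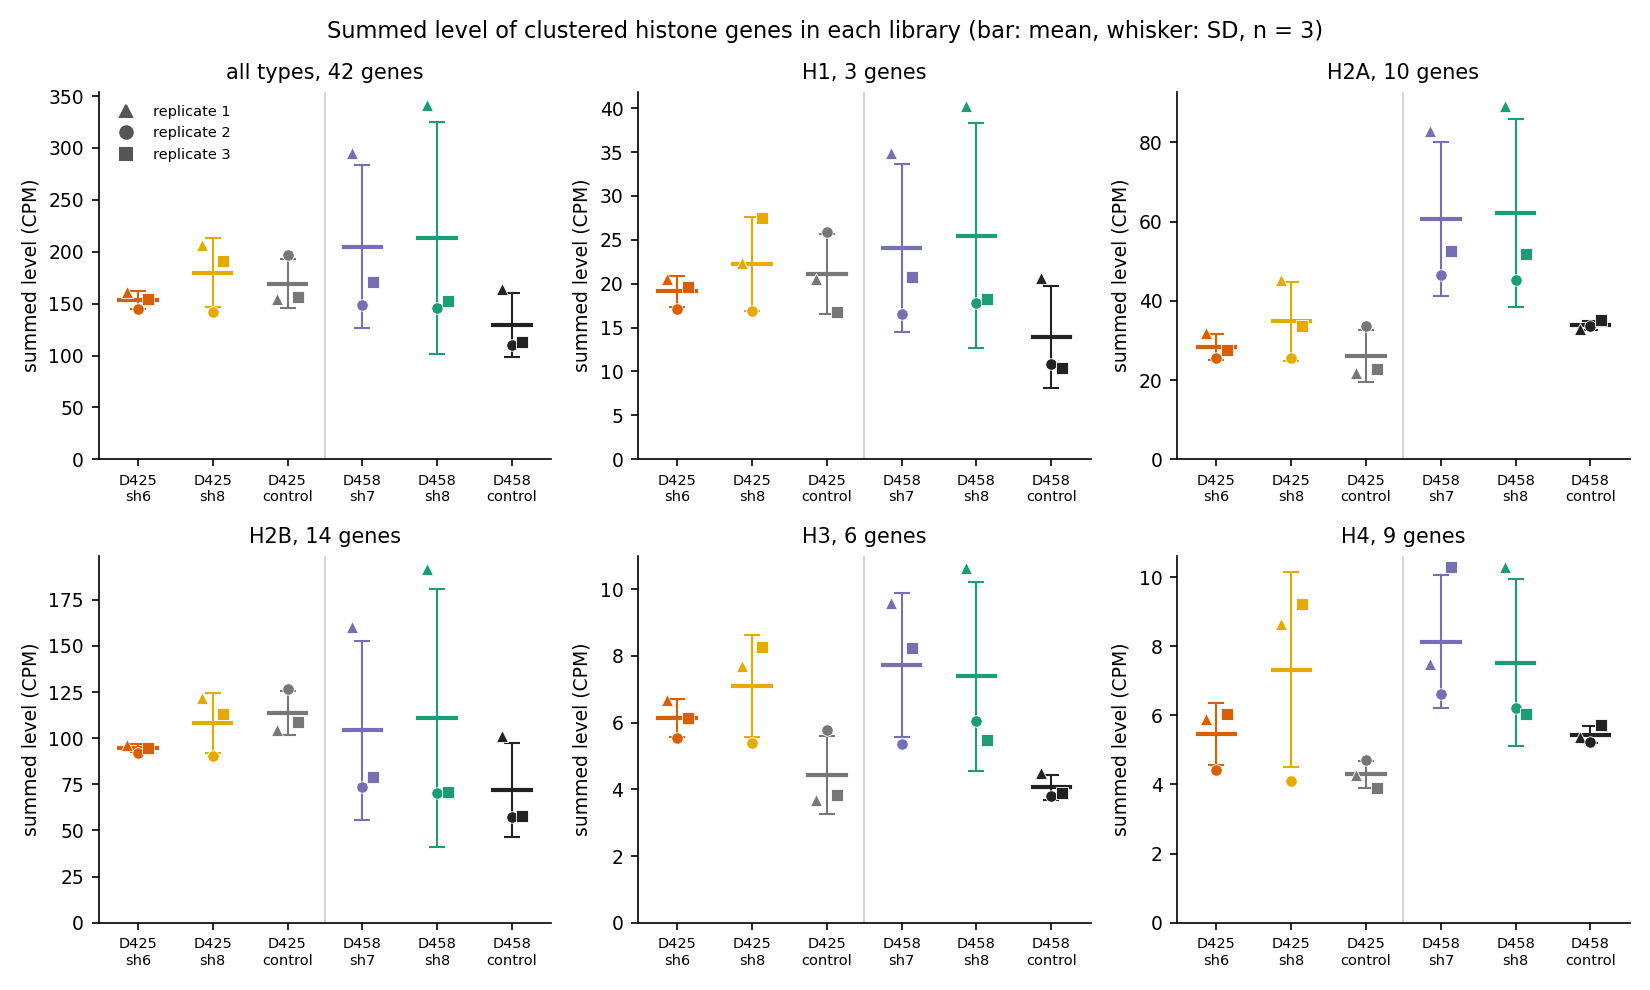
Summed level (CPM, linear axis from 0) of the clustered histone genes in each library, for all 42 genes and per histone type; symbols mark the replicate number, bars the mean and whiskers the SD of 3 libraries. D458 sh7 and sh8 replicate 1 reach 295 and 342 CPM, while D458 controls lie between 110 and 165 CPM.

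The log2 ratio of the mean sums was 0.66 for D458 sh7 and 0.72 for D458 sh8 against control, and -0.14 for D425 sh6 and 0.09 for D425 sh8. Without D458 sh7 replicate 1 or D458 sh8 replicate 1 the D458 ratios came to 0.31 and 0.20. The replicate 1 values alone were 0.84 and 1.05, those of replicate 2 were 0.43 and 0.40, and those of replicate 3 were 0.60 and 0.43 for sh7 and sh8. The sign of the D425 sh6 ratio rested on 1 gene: without HIST1H2BK that ratio was 0.07. The D425 sh8 ratio was larger without HIST1H2BK, at 0.34. No test was made of these sums.

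For each of the 4 core types and H1, every D458 hairpin library lay above the control of its own number in summed level, but whole groups overlapped for H2B and H1. In D458, the summed level of H2A genes was 82.7, 46.5 and 52.6 CPM with sh7 and 89.2, 45.3 and 51.7 CPM with sh8, against 32.9, 33.5 and 35.04 CPM in controls, so that neither hairpin group overlapped the controls. H3 genes summed to 9.58, 5.37 and 8.24 CPM with sh7 and 10.6, 6.04 and 5.48 CPM with sh8, against 4.49, 3.81 and 3.88 CPM in D458 controls. H4 genes summed to 7.48, 6.61 and 10.3 CPM with sh7 and 10.3, 6.22 and 6.03 CPM with sh8, against 5.37, 5.23 and 5.72 CPM in D458 controls. The H3 and H4 sums of hairpin libraries thus also lay above all controls, by less for H4 than for H2A. The H2B sums overlapped (73.5 to 160 CPM with sh7 and 70.0 to 191 CPM with sh8, against 57.0 to 101 CPM in controls), as did those of H1 (16.6 to 34.8 CPM with sh7 and 17.8 to 40.2 CPM with sh8, against 10.3 to 20.6 CPM in controls).

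In D425 the sums of the types differed in direction. H2B genes summed to 96.5, 92.2 and 94.9 CPM with sh6, against 105, 127 and 109 CPM in controls, and all sh6 libraries lay below all controls. This H2B difference rested on HIST1H2BK: the log2 ratio of the mean sums was -0.26 with it and 0.0466 without it. The H3 sums were 5.55 to 6.69 CPM with sh6 and 5.38 to 8.27 CPM with sh8, against 3.69 to 5.78 CPM in D425 controls. Those of H4 were 4.43 to 6.05 CPM with sh6 and 4.10 to 9.22 CPM with sh8, against 3.91 to 4.70 CPM in D425 controls. The H3 and H4 groups overlapped because control replicate 2 was the highest control in both, and replicate 2 of both hairpins was the lowest of its group.

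Gene by gene, more histone genes passed the test in D458 than in D425. With D458 sh7, 5 of the 42 genes rose and 0 fell at an edgeR adjusted p under 0.05, against 11.5% of all 14850 genes higher and 11.1% lower. With D458 sh8, 4 of 42 rose and 0 fell, against 12.1% of all genes higher and 11.1% lower. With D425 sh8, 1 of 42 rose and 0 fell, against 11.6% of all genes higher and 10.1% lower. With D425 sh6, 0 rose and 0 fell, against 7.31% of all genes higher and 6.84% lower. In each comparison of this fit the share of histone genes that rose was close to or below that of all genes. At an unadjusted p under 0.05 the counts were 11, 14, 5 and 0 for D458 sh7, D458 sh8, D425 sh8 and D425 sh6, against 37.6%, 37.1%, 35.1% and 27.7% of all genes. DESeq2 called 6, 8, 2 and 0, against 26.1%, 26.5%, 24.7% and 17.1% of all genes. Whether the lines differ was tested only for sh8, as given further on.

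A fit with the replicate number as a block within each line called more genes. With it, 14 histone genes rose and 0 fell with D458 sh7, against 20% of all genes higher and 20% lower, and 15 rose and 0 fell with D458 sh8, against 19.9% higher and 19.7% lower. For D425 sh8, 5 rose and 1 fell (19.5% of all genes higher and 17.7% lower), and for D425 sh6, 0 rose and 1 fell (14.5% higher and 13.3% lower). With the block the shares of histone genes that rose in D458, 33.3% with sh7 and 35.7% with sh8, lay above those of all genes, and the 11.9% with D425 sh8 lay below. Leaving out single libraries moved the counts without the block. Without D458 sh7 replicate 1 or D458 control replicate 2, 0 genes passed in D458 sh7, and without control replicate 1 or 3 it was 2 or 1. Without D458 sh8 replicate 1 or D458 control replicate 2, 0 genes passed in D458 sh8, without control replicate 1 or 3 it was 1 each, and without sh8 replicate 2 or 3 it was 9 or 8. For D425 sh8, 2 genes passed without sh8 replicate 2 and 0 without any other single library of the comparison. With replicates 2 and 3 only and the block, a setting added after the data were seen, 6 and 2 histone genes rose with D458 sh7 and sh8 and none fell. In D425 that setting gave 4 that rose and 2 that fell with sh8, and 4 that fell with sh6. The same setting called 25.8% and 20.9% of all genes in either direction for D458 sh7 and sh8, and 34.1% and 28.9% for D425 sh8 and sh6, and the shares of histone genes called lay below these.

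**Figure D2:**
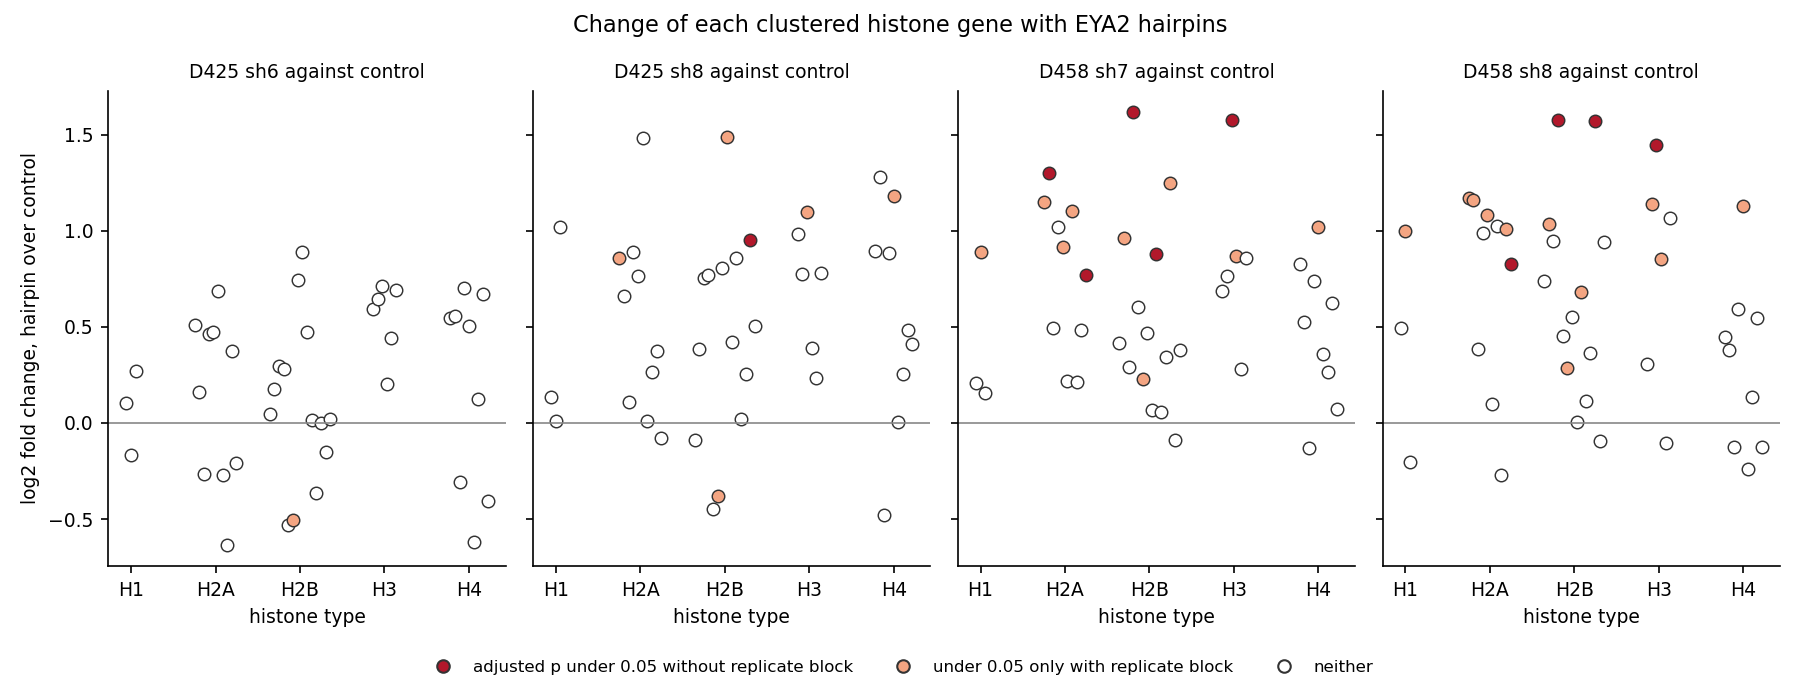
Log2 fold change of each of the 42 genes, hairpin over control, by histone type in the 4 comparisons; fill shows whether the edgeR adjusted p was under 0.05 without the replicate block (dark), only with it (light) or in neither fit (open). In D458 sh7 40 of 42 points lie above 0, and 14 points are filled, 5 dark and 9 light.

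The direction of the change was more uniform than the calls. The log2 change was above 0 for 40 of 42 genes with D458 sh7, 35 with D458 sh8, 37 with D425 sh8 and 29 with D425 sh6. The medians of the 42 genes were 0.57, 0.57, 0.49 and 0.24 in that order, against medians over all genes tested of 0.01, 0.01, 0.02 and 0.01. Low levels go with such positive values in all genes: the 2111 tested genes averaging under 1 CPM had medians of 0.49, 0.48, 0.43 and 0.27, where 22 histone genes had 0.37, 0.41, 0.63 and 0.41. The 7 histone genes between 5 and 100 CPM had medians of 0.89, 1.00, 0.02 and -0.17, against -0.03, -0.02, 0.00 and 0.00 for all 8236 genes of that range. Comparisons within a line share their controls. The hairpin libraries did not overlap the controls and lay above them for 11 genes with D458 sh7 (21.6% of all genes), 10 with D458 sh8 (20.8%), 7 with D425 sh8 (18.5%) and 6 with D425 sh6 (18.6%).

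Among H2A genes, HIST3H2A had 48.6, 29.5 and 33.5 CPM with D458 sh7 and 50.9, 30.1 and 35.2 CPM with D458 sh8, against 18.7, 22.4 and 24.5 CPM in D458 controls. Every hairpin library lay above every control, and replicate 1 was the highest in both hairpin groups and the lowest among controls. HIST3H2A rose by 0.77 ± 0.25 with sh7 (log2, edgeR adjusted p = 0.0362) and by 0.83 ± 0.25 with sh8 (adjusted p = 0.0253). In replicates 2 and 3 alone, with the block, the changes were 0.42 ± 0.12 (adjusted p = 0.0229) and 0.48 ± 0.12 (adjusted p = 0.0150). In D425 it had 10.6, 9.05 and 8.12 CPM with sh6 and 13.8, 8.05 and 8.37 CPM with sh8, against 8.67, 13.8 and 9.56 CPM in controls, with log2 changes of -0.21 ± 0.26 and -0.08 ± 0.26 that did not pass. In replicates 2 and 3 alone, with the block, the D425 changes were -0.43 ± 0.13 (adjusted p = 0.0303) with sh6 and -0.48 ± 0.14 (adjusted p = 0.0141) with sh8. Without the block the edgeR fit of these replicates gave adjusted p = 0.0755 with sh6 and 0.0391 with sh8. Replicate 1, left out there, went the other way, above its control with both hairpins. In D425, numbers 2 and 3 did not pair hairpin with control libraries, as given under processing.

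HIST1H2AE, another H2A gene, had 4.28, 2.11 and 2.19 CPM with D458 sh7 and 4.29, 1.83 and 1.66 CPM with D458 sh8, against 1.29, 0.977 and 1.21 CPM in D458 controls. The groups did not overlap, and it rose by 1.30 ± 0.42 with sh7 (adjusted p = 0.0371), while the sh8 change of 1.16 ± 0.42 did not pass (adjusted p = 0.0570, and 0.0247 with the block). In replicates 2 and 3 with the block the changes were 0.97 and 0.66 with adjusted p = 0.105 and 0.289. HIST1H2AC, known to give polyadenylated RNA, had 22.2, 7.91 and 8.96 CPM with D458 sh7 and 24.4, 6.43 and 8.75 CPM with D458 sh8, against 7.91, 5.08 and 4.63 CPM in D458 controls. With sh7 the lowest hairpin library and the highest control were level at 7.91 CPM, and the sh8 group overlapped the controls. Its changes of 1.15 ± 0.49 (adjusted p = 0.0986) and 1.17 ± 0.49 (adjusted p = 0.0936) passed with the block at 0.0167 and 0.0191, and in replicates 2 and 3 with the block had adjusted p = 0.0355 and 0.0905. It was also among the 5 genes that passed with the block for D425 sh8, with 22.2, 11.6 and 13.1 CPM against 6.77, 12.2 and 6.92 CPM in controls. HIST2H2AC, the divergent neighbour of HIST2H2BE, had 1.17, 1.30 and 1.44 CPM with D458 sh8, against 0.711, 0.684 and 0.542 CPM in controls (log2 change 1.01 ± 0.38, adjusted p = 0.0624). The other 6 H2A genes had log2 changes with no call in any of the 4 comparisons without the block.

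Among H2B genes, HIST1H2BK held the most counts and is uncertain because of its copies. It had 47.2, 50.9 and 47.2 CPM with D425 sh6 and 53.8, 47.8 and 56.8 CPM with D425 sh8, against 65.1, 70.4 and 70.9 CPM in D425 controls. All 6 hairpin libraries lay below all controls. The log2 changes of -0.51 ± 0.37 and -0.38 ± 0.37 did not pass (adjusted p = 0.413 and 0.495), but did with the replicate block (adjusted p = 0.000217 and 0.00134). In D458 it had 75.8, 33.6 and 36.4 CPM with sh7 and 85.2, 33.0 and 33.2 CPM with sh8, against 64.4, 28.9 and 31.1 CPM in controls, higher than the control of the same number in all 3 cases for both hairpins. With the block these changes were 0.23 (adjusted p = 0.0357) and 0.24 (adjusted p = 0.0285). The D458 changes in replicates 2 and 3 with the block were 0.22 (adjusted p = 0.104) and 0.14 (adjusted p = 0.314), while those in D425 passed, at -0.52 (adjusted p = 0.000681) with sh6 and -0.43 (adjusted p = 0.00221) with sh8.

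HIST1H2BG had 6.05, 2.59 and 2.19 CPM with D458 sh7 and 6.77, 1.57 and 2.17 CPM with D458 sh8, against 1.07, 1.17 and 1.29 CPM in D458 controls. The groups did not overlap, with replicate 1 far above the other hairpin libraries. It rose by 1.62 ± 0.50 with sh7 (adjusted p = 0.0307) and 1.58 ± 0.50 with sh8 (adjusted p = 0.0328), while in replicates 2 and 3 with the block the changes did not pass, at 0.95 ± 0.39 (adjusted p = 0.0923) and 0.59 ± 0.40 (adjusted p = 0.320). HIST2H2BE, which has both the stem-loop letters and a known polyadenylated form, had 27.02, 11.3 and 10.0 CPM with D458 sh7 and 39.6, 10.3 and 10.5 CPM with D458 sh8, against 7.73, 5.77 and 6.88 CPM in D458 controls. Again no library overlapped and replicate 1 was highest. It rose by 1.57 ± 0.50 with sh8 (adjusted p = 0.0344), while 1.25 ± 0.50 with sh7 did not pass (adjusted p = 0.0816, and 0.0418 with the block). Neither passed in replicates 2 and 3 with the block, at 0.75 ± 0.34 (adjusted p = 0.148) with sh7 and 0.71 ± 0.34 (adjusted p = 0.178) with sh8.

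HIST1H2BN, whose exons overlap HIST1H2AK, had 9.42, 5.03 and 7.75 CPM with D458 sh7, against 4.93, 4.15 and 3.00 CPM in D458 controls, and rose by 0.88 ± 0.27 (adjusted p = 0.0307). With D458 sh8 it had 9.63, 4.70 and 5.01 CPM, which overlapped the controls (0.68 ± 0.27, adjusted p = 0.0804, and 0.0130 with the block). The adjusted p in replicates 2 and 3 with the block was 0.0224 for sh7 and 0.214 for sh8. HIST1H2BD, another gene with a known polyadenylated form, had 26.6, 9.49 and 9.67 CPM with D458 sh7 and 32.2, 7.87 and 7.90 CPM with D458 sh8, against 11.99, 6.45 and 5.09 CPM in D458 controls. Control replicate 1 lay above replicates 2 and 3 of both hairpins. Its changes of 0.96 ± 0.52 and 1.03 ± 0.52 passed only with the block (adjusted p = 0.00378 and 0.00510), and in replicates 2 and 3 with the block that of sh7 did (0.74 ± 0.21, adjusted p = 0.0206) and that of sh8 did not (0.46 ± 0.21, adjusted p = 0.139). HIST2H2BF, opposite FCGR1A, was the gene that rose with D425 sh8: it had 2.56, 1.06 and 2.93 CPM, against 1.24, 0.895 and 1.24 CPM in D425 controls. The groups overlapped through sh8 replicate 2, and the change was 0.95 ± 0.33 (adjusted p = 0.0469), or 0.84 ± 0.33 (adjusted p = 0.0655) in replicates 2 and 3 with the block. In D458 the same gene had 1.03, 1.34 and 1.48 CPM with sh7 and 1.504, 1.35 and 0.977 CPM with sh8, against 1.24, 1.52 and 1.34 CPM in controls. The pseudogene HIST2H2BC and HIST3H2BB, the divergent neighbour of HIST3H2A, had no call with any hairpin in the fits of all 3 replicates. HIST2H2BC fell with D425 sh6 in replicates 2 and 3 with the block, by 0.70 ± 0.18 on the log2 scale (adjusted p = 0.00926). Its levels were 7.12, 5.16 and 5.34 CPM with D425 sh6, against 5.60, 8.95 and 8.16 CPM in D425 controls. Replicate 1 thus lay above its control, and the change in all 3 replicates without the block was -0.37.

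**Figure D3:**
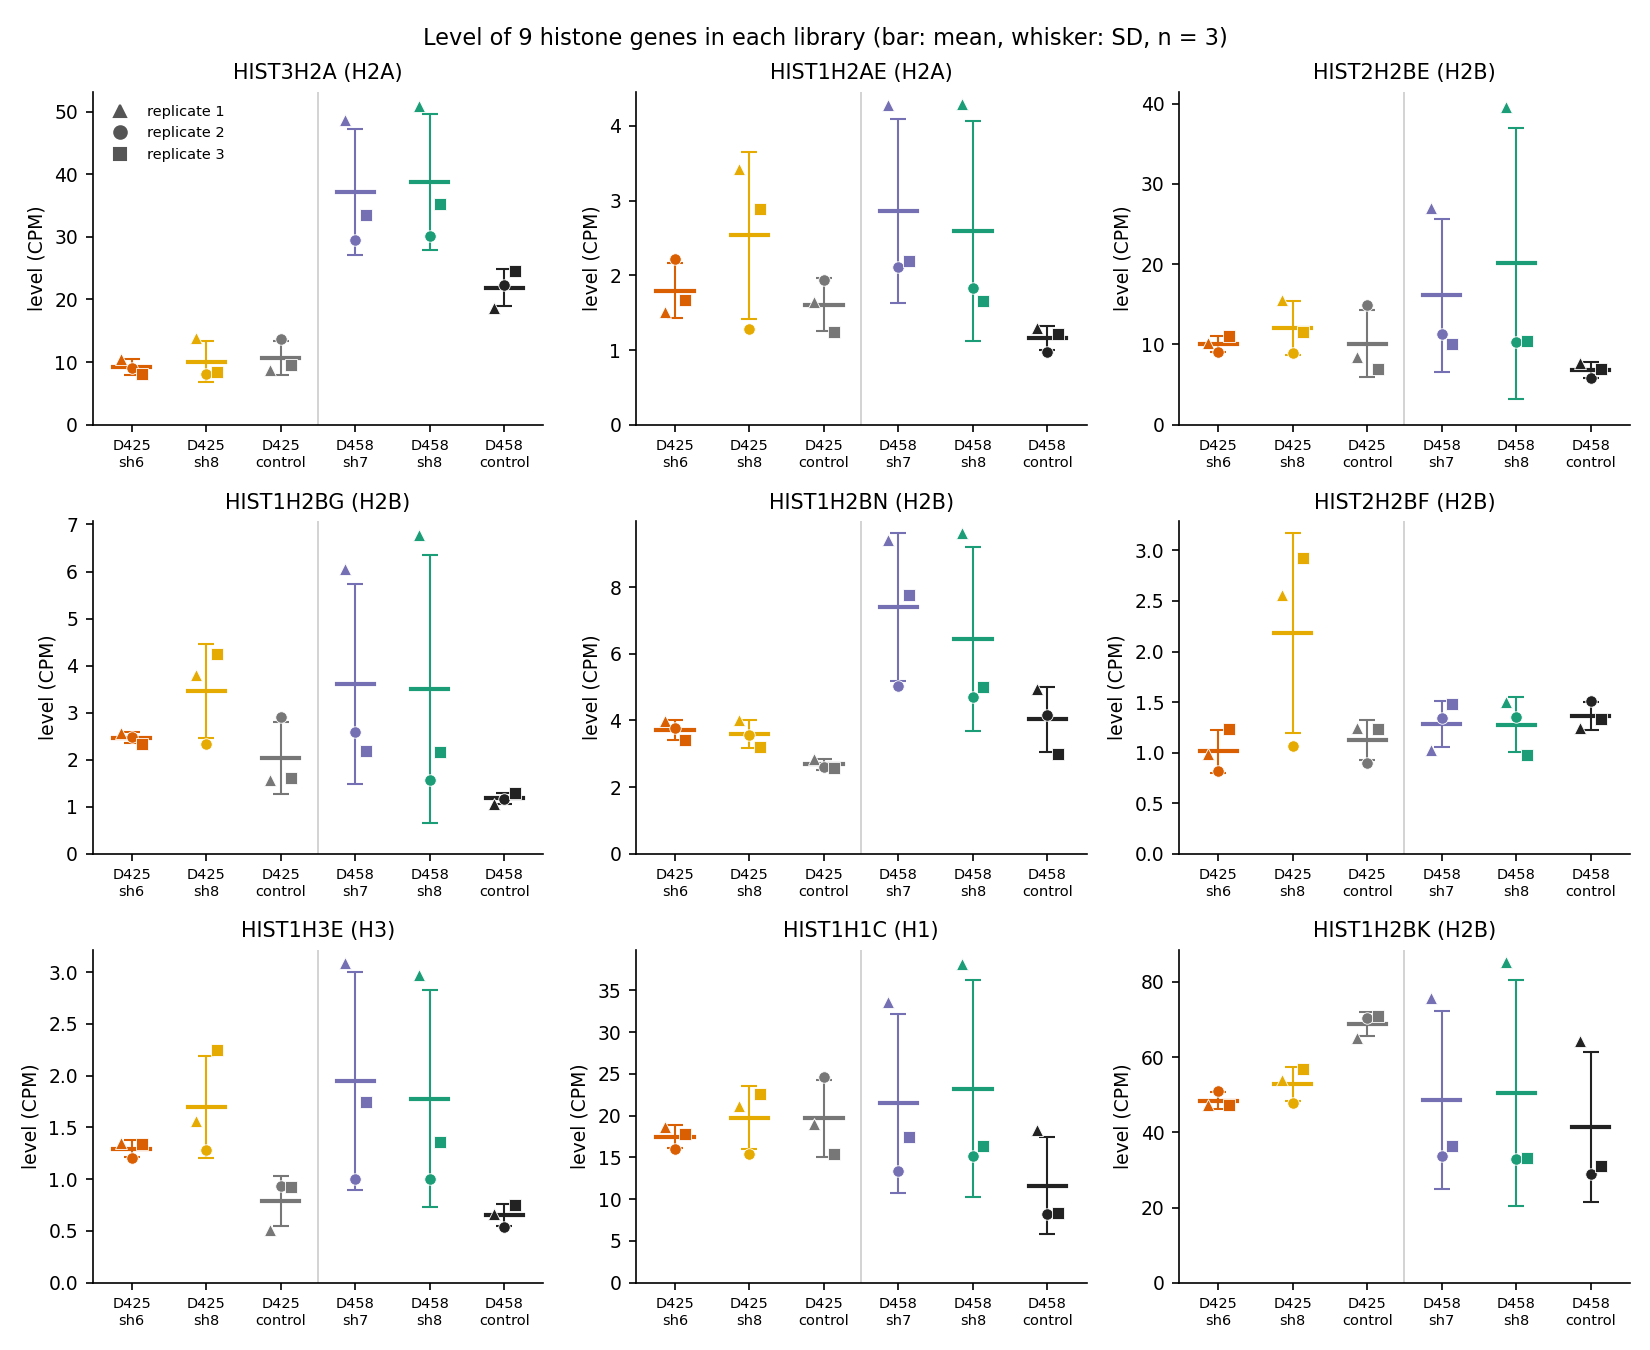
Level (CPM, linear axes from 0, a separate scale per gene) of 9 histone genes in each library; symbols mark the replicate number, bars the mean and whiskers the SD of 3 libraries. Replicate 1 is the highest library of both D458 hairpin groups for 8 of the 9 genes, all but HIST2H2BF, and HIST1H2BK lies at 47.2 to 56.8 CPM in D425 hairpin libraries, below its 65.1 to 70.9 CPM in D425 controls.

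Among H3 genes, HIST1H3E had 3.08, 1.01 and 1.75 CPM with D458 sh7 and 2.97, 1.00 and 1.36 CPM with D458 sh8, against 0.666, 0.538 and 0.751 CPM in D458 controls. Both hairpin groups lay above the controls. It rose by 1.57 ± 0.45 with sh7 (adjusted p = 0.0208) and 1.44 ± 0.45 with sh8 (adjusted p = 0.0298). In replicates 2 and 3 with the block the changes were 1.08 ± 0.38 (adjusted p = 0.0496) and 0.87 ± 0.38 (adjusted p = 0.122). In D425 it had 1.35, 1.20 and 1.34 CPM with sh6 and 1.56, 1.28 and 2.25 CPM with sh8, against 0.512, 0.932 and 0.921 CPM in controls, also without overlap. The D425 changes of 0.71 ± 0.44 and 1.10 ± 0.43 did not pass (adjusted p = 0.314 and 0.0778), and that of sh8 passed with the block (adjusted p = 0.00916), also in replicates 2 and 3 alone (adjusted p = 0.0431). HIST1H3H had 4.69, 1.87 and 3.09 CPM with D458 sh7 and 4.66, 2.61 and 2.29 CPM with D458 sh8, against 1.95, 1.76 and 1.59 CPM in controls, and passed only with the block (0.0389 and 0.0398), but not in replicates 2 and 3 alone (0.270 and 0.293). HIST1H3D, uncertain because its exon overlaps AL031777.3 on the same strand, passed only with the block and only for D458 sh8 (log2 change 1.14 ± 0.44 without the block, adjusted p = 0.0723, 0.0273 with it, and 0.199 in replicates 2 and 3 with the block). HIST2H3D, uncertain because of a copy, had no call in the fits of all 3 replicates. All 6 H3 genes had changes above 0 in D458 sh7, D425 sh6 and D425 sh8, and 5 of 6 in D458 sh8.

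H4 genes had no call in the 4 comparisons without the block. HIST1H4H had 2.76, 1.82 and 1.70 CPM with D458 sh7 and 3.91, 1.39 and 1.44 CPM with D458 sh8, against 1.02, 1.08 and 1.00 CPM in D458 controls. In D425 it had 4.79, 1.65 and 2.62 CPM with sh8, against 1.17, 1.53 and 1.30 CPM in controls. None of these 3 groups overlapped its controls. The changes of 1.02 ± 0.44, 1.13 ± 0.43 and 1.18 ± 0.41 had adjusted p = 0.0983, 0.0693 and 0.0507, and passed with the block at 0.0357, 0.0286 and 0.0138. None of the 3 passed in replicates 2 and 3 with the block (adjusted p = 0.106, 0.366 and 0.140). HIST1H4E and HIST1H4J had no call in either fit, and HIST4H4, on chromosome 12, had log2 changes between -0.40 and 0.41.

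Of the linker histones, HIST1H1C had 33.6, 13.3 and 17.5 CPM with D458 sh7 and 38.2, 15.1 and 16.4 CPM with D458 sh8, against 18.3, 8.21 and 8.39 CPM in D458 controls. Each hairpin library lay above the control of its own number, but control replicate 1 lay above replicates 2 and 3 of both hairpins. The changes of 0.89 ± 0.40 and 1.00 ± 0.40 did not pass (adjusted p = 0.121 and 0.0830), and passed with the block (adjusted p = 0.00126 and 0.000608). In replicates 2 and 3 with the block they were 0.89 ± 0.26 (adjusted p = 0.0381) and 0.93 ± 0.26 (adjusted p = 0.0365). In D425 it had 18.6, 16.04 and 17.8 CPM with sh6 and 21.2, 15.4 and 22.6 CPM with sh8, against 18.9, 24.6 and 15.5 CPM in controls, with changes of -0.17 ± 0.39 and 0.01 ± 0.39. HIST1H1E and HIST1H1B had no call in the fits of all 3 replicates. HIST1H1E rose with D425 sh8 in replicates 2 and 3 with the block, by 1.42 ± 0.38 (adjusted p = 0.0110). Its levels were 1.06, 1.24 and 4.12 CPM with D425 sh8, against 1.32, 0.969 and 0.889 CPM in D425 controls. Replicate 3 thus stood far above the other sh8 libraries, and replicate 1 lay below its control.

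The 8 genes known from general knowledge to give polyadenylated transcripts (HIST1H1C, HIST1H2AC, HIST1H2BC, HIST1H2BD, HIST1H2BJ, HIST1H2BK, HIST2H2BE and HIST4H4) were set beside the other 34. Their median log2 change was 0.75 with D458 sh7 and 0.87 with D458 sh8, against 0.51 and 0.55 for the 34. In D425 it was -0.09 with sh6 and 0.13 with sh8, against 0.33 and 0.76 for the 34. The order of the medians thus turned round between the lines. Genes with the stem-loop letters had medians of 0.75 and 0.78 in D458 sh7 and sh8, against 0.50 and 0.41 for those without, and 0.17 and 0.46 in D425 sh6 and sh8, against 0.41 and 0.63. No test was made of these differences. A gene without the letters lacks them in its annotated transcripts only, and several of these are short, such as 312 nt for HIST1H4K and 381 nt for HIST1H2BK. The sets also differ in level: several of the 8, such as HIST1H2BK and HIST1H1C, are among the genes of highest level. Low levels went with positive changes in all genes, and the part of level in these medians was not tested.

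H2A and H2B genes formed 7 divergent pairs among the 42 genes, with starts that lay 194 to 248 bases apart. HIST3H2A and HIST3H2BB had log2 changes of 0.83 and 0.94 with D458 sh8, HIST2H2BE and HIST2H2AC of 1.57 and 1.01, and HIST1H2BL and HIST1H2AI of 0.55 and 1.08. HIST1H2AJ and HIST1H2BM had 1.48 and 1.48 with D425 sh8, but 0.10 and 0.01 with D458 sh8. Both genes of each of these pairs lay on the same side of 0 in the comparison given. Over the 7 pairs and 4 comparisons the genes of a pair lay on opposite sides of 0 in 7 of 28 cases, among them HIST1H2AK and HIST1H2BN with D425 sh6, at -0.27 and 0.47. Of all 42 genes, 95.2% lay above 0 with D458 sh7, 83.3% with D458 sh8, 88.1% with D425 sh8 and 69.0% with D425 sh6. Histone genes that form no pair would thus often share a side too, and whether pairs do so more was not tested.

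The 2 hairpins of a line were set against each other. Between D458 sh8 and sh7, 0 of 42 histone genes passed the edgeR test, as did 0% of all genes, and 0 had an unadjusted p under 0.05, against 1.85% of all genes. Between D425 sh8 and sh6, 0 of 42 passed, again beside 0% of all genes, and 1 had an unadjusted p under 0.05, HIST2H2BF with a log2 difference of 1.10 ± 0.33, against 3.49% of all genes. DESeq2 called 0 in both, against 0.0269% and 0.0404% of all genes. The median difference of the 42 genes was -0.02 for D458 and 0.32 for D425, with 19 and 37 of 42 above 0.

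The sh8 hairpin was used in both lines, so its effect could be compared. The effect in D458 minus that in D425 passed the edgeR test for 0 of 42 histone genes, against 11.8% of all genes, with 2 at an unadjusted p under 0.05 (27.7% of all genes) and 0 by DESeq2 (16.3%). The 2 were HIST3H2A (difference 0.90 ± 0.35, adjusted p = 0.108) and HIST2H2BF (-1.05 ± 0.47, adjusted p = 0.160). With the replicate block, 2 genes were higher in D458, against 13.5% of all genes: HIST1H1C (0.97 ± 0.23, adjusted p = 0.00762) and HIST1H2BK (0.62 ± 0.11, adjusted p = 0.000995). In that fit HIST1H2BK rose with sh8 in D458, a call lost in replicates 2 and 3 alone, and fell with sh8 in D425, and HIST1H1C rose in D458 with a D425 change of 0.01 that did not pass.

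Between control cultures, D458 against D425, 2 of 42 histone genes were higher and 1 lower, against 31.4% of all genes higher and 31.4% lower. HIST3H2A was at 18.7, 22.4 and 24.5 CPM in D458 and 8.67, 13.8 and 9.56 CPM in D425 (log2 1.04 ± 0.25, adjusted p = 0.00200). HIST1H4C was at 0.489, 0.489 and 0.626 CPM in D458 and 0.183, 0.149 and 0.159 CPM in D425 (1.68 ± 0.70, adjusted p = 0.0447). HIST2H2BC was at 3.33, 3.23 and 3.88 CPM in D458 and 5.60, 8.95 and 8.16 CPM in D425 (-1.12 ± 0.27, adjusted p = 0.00159). None of the 3 overlapped between the lines. Without replicate 1 of either line, 8 histone genes passed in place of 3, and without replicate 2 or 3 of both lines, 1 each.

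Genes that act in S phase, when clustered histone genes are normally transcribed, fell in D458. The list counts that follow stand beside 11.1% of all genes lower with each D458 hairpin, 6.84% with D425 sh6 and 10.1% with D425 sh8, and 11.5%, 12.1%, 7.31% and 11.6% higher with D458 sh7, D458 sh8, D425 sh6 and D425 sh8. With the replicate block, 20%, 19.7%, 13.3% and 17.7% of all genes were lower in that order, and 20%, 19.9%, 14.5% and 19.5% higher. Of 26 tested genes of S phase and DNA replication, 15 fell with D458 sh7 and 16 with D458 sh8, none rose, and the medians were -0.45 and -0.49. In D425, 1 fell with sh6 and 4 with sh8, none rose, and the medians were -0.08 and -0.27. With the block, 24 of the 26 fell with each D458 hairpin, 2 with D425 sh6 and 13 with D425 sh8. In that fit 1 rose with D458 sh7. DUT, which keeps uracil out of DNA, fell by 0.61 and 0.54 on the log2 scale with D458 sh7 and sh8, and CDC45, part of the replicative helicase, by 0.74 and 0.79. FEN1, the flap endonuclease, fell by 0.53 and 0.56, and GINS1, another helicase subunit, by 0.67 and 0.79. GINS1 also fell with both D425 hairpins, by 0.68 and 0.73.

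The 2 D458 hairpin libraries with the most histone RNA had the least RNA of this list. Its 27 genes summed to 3567, 4728 and 4798 CPM in D458 sh7 (replicates 1, 2 and 3) and 3019, 4851 and 4899 CPM in D458 sh8, against 5872, 5956 and 6023 CPM in D458 controls. They summed to 5220, 5560 and 5087 CPM in D425 sh6 and 4513, 5274 and 4402 CPM in D425 sh8, against 5688, 5544 and 5811 CPM in D425 controls. D458 replicate 1 was the lowest of both hairpin groups, and D425 sh8 replicate 2, the lowest in histone sum, was the highest of its group here. The part of this list in the histone result was not tested.

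**Figure D4:**
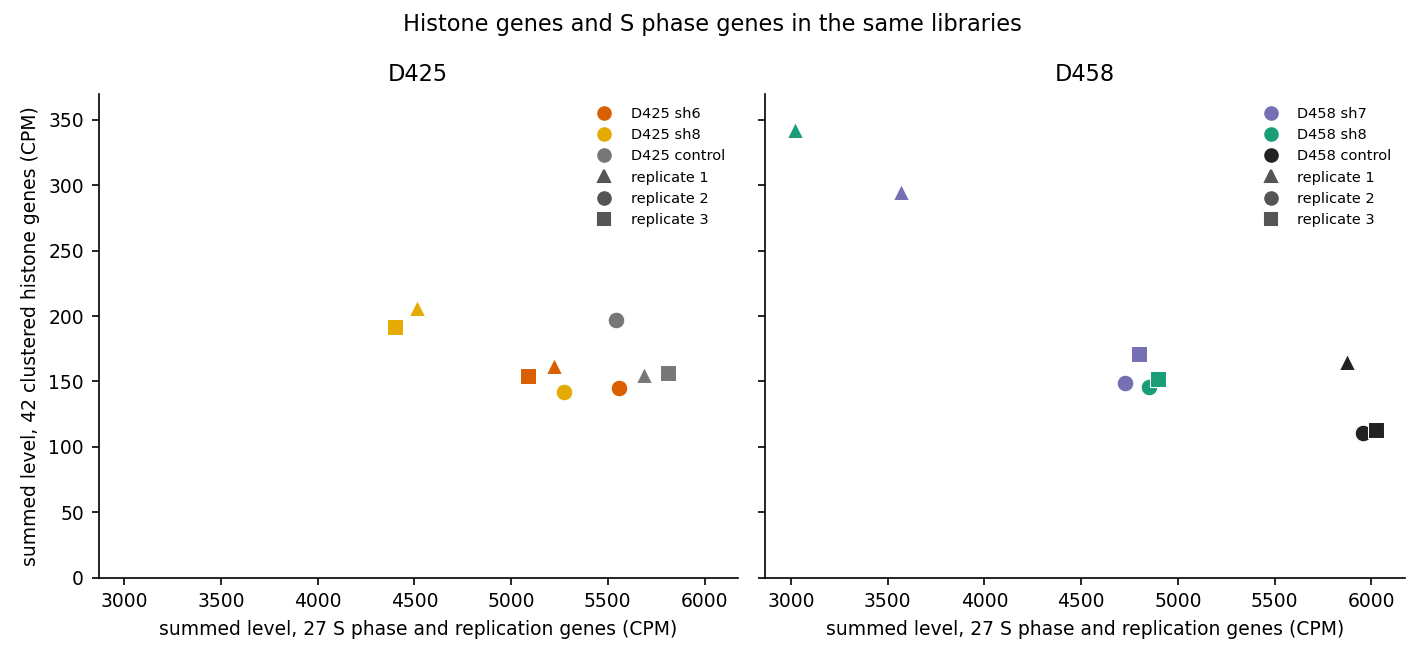
Summed level of the 42 clustered histone genes (CPM, vertical axis) against that of 27 S phase and replication genes (CPM, horizontal axis, not from 0) in each library, D425 left and D458 right; colours mark groups and symbols replicate numbers. D458 sh8 and sh7 replicate 1 lie at the upper left, at 342 and 295 CPM against 3019 and 3567 CPM.

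Genes of histone transcription and RNA processing fell in part. Of 10 genes of histone transcription, 4 fell with each D458 hairpin, 2 with D425 sh6 and 3 with D425 sh8, and none rose. With the block, 7 fell with each D458 hairpin and 4 with each D425 hairpin, and none rose. E2F1, a cell cycle transcription factor, fell in all 4, by 0.52 and 0.50 with D458 sh7 and sh8 and by 0.55 and 0.74 with D425 sh6 and sh8. CDK2 fell by 0.53 and 0.52 with D458 sh7 and sh8, CASP8AP2, a histone locus body protein, by 0.49 and 0.36, and CCNE1, the cyclin E that pairs with CDK2, by 0.46 and 0.83 with D425 sh6 and sh8. NPAT, the coactivator of histone genes, named for its role and outside the naming rule, had changes between -0.26 and -0.12 and did not pass without the block.

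Of 23 genes of histone mRNA 3′ end formation and turnover, 1 rose and 6 fell with D458 sh7, 6 fell with D458 sh8, 1 with D425 sh6 and 2 with D425 sh8, the D425 counts being near the share of all genes lower. With the block, 1 rose and 12 fell with D458 sh7, and 1 rose and 13 fell with D458 sh8. In that fit 4 fell with D425 sh6 and 5 with D425 sh8, and none rose. SNRPD3, a core protein of small nuclear ribonucleoproteins, fell by 0.66 and 0.69 with D458 sh7 and sh8, and CSTF2, a cleavage and polyadenylation factor, by 0.61 and 0.62. SNRPB, another core protein of such particles, fell by 0.38 and 0.46 with D458 sh7 and sh8 and by 0.54 with D425 sh8, and NCBP1, of the cap-binding complex, fell by 0.32 with D425 sh8. LSM11, specific to the U7 particle that cleaves histone pre-mRNA, was the gene that rose without the block, by 0.39 with D458 sh7. It was picked for this after its values were seen. SLBP, likewise named for its role, had 79.4 CPM with D458 sh7 and 81.1 CPM with D458 sh8 on average, against 99.97 CPM in controls. Its changes of -0.33 ± 0.14 and -0.30 ± 0.14 did not pass (adjusted p = 0.0855 and 0.117), and passed with the block (0.00593 and 0.00788).

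Of 19 histone chaperones, 9 fell with D458 sh7 and 8 with D458 sh8, and none rose. With the block, 14 fell with D458 sh7 and 15 with D458 sh8, and none rose. UBN1 and HIRA, of the complex that deposits H3 outside replication, fell by 0.59 and 0.41 with sh7 and 0.57 and 0.47 with sh8, and DAXX, which deposits H3 at heterochromatin, fell by 0.41 and 0.42 with sh7 and sh8. In D425, 1 rose and 1 fell with sh6, and 2 rose and 3 fell with sh8. With the block, 1 rose and 2 fell with D425 sh6, and 2 rose and 5 fell with D425 sh8. ASF1A, a chaperone of H3 and H4, rose by 0.48 and 0.52 with D425 sh6 and sh8 and fell by 0.52 and 0.50 with D458 sh7 and sh8. Of 9 tested replication-independent histone genes, most of whose mRNAs are polyadenylated, none rose or fell with D458 sh7 or D425 sh6 without the block. In that fit H3F3B fell with D458 sh8, by 0.30, and 4 fell with D425 sh8, among them H2AFX by 0.57 and H2AFZ by 0.39. With the block, 1 rose and 3 fell with D458 sh7, and 3 fell with D458 sh8, 3 with D425 sh6 and 6 with D425 sh8.

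RNAs without poly(A) tails measure how much unselected RNA the libraries held, and none of the 9 tested rose in any of the 4 comparisons without the block. With it, 1 rose with D458 sh8, 1 fell with each D458 hairpin and with D425 sh6, and 2 fell with D425 sh8. The median log2 changes of the 9 were 0.15 and 0.58 with D458 sh7 and sh8, and 0.02 and -0.19 with D425 sh6 and sh8. SNORD17 fell with D458 sh7 and sh8, by 1.11 and 1.03. RMRP, of an RNA-processing complex, had 127, 274 and 431 counts in D458 sh7 libraries and 410, 244 and 187 in D458 sh8 libraries, against 98, 100 and 141 in D458 controls. In D425 it had 211, 67 and 340 counts with sh6 and 84, 127 and 693 with sh8, against 140, 41 and 131 in controls. RMRP was thus higher in every D458 hairpin library than in the control of its number, and D425 sh8 replicate 3 was highest. RPPH1 had 72, 207 and 248 counts with D458 sh7 and 297, 164 and 103 with D458 sh8, against 64, 90 and 85 in D458 controls. Its counts too were above the control of the same number in each case. The summed level of the 18 listed genes was 23.1 to 50.3 CPM in D458 sh7 and 35.1 to 41.6 CPM in D458 sh8, against 22.3 to 26.98 CPM in D458 controls, and 15.5 to 28.7 CPM in D425 sh6 and 13.5 to 46.0 CPM in D425 sh8, against 17.2 to 22.6 CPM in D425 controls. The part of this RNA in the histone result was not tested.

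Markers of other cell types were looked at in the same libraries, which had been sorted for zsGreen. MYC and OTX2, markers of Group 3 medulloblastoma, were present in all libraries at 2271 to 4092 CPM and 1266 to 2275 CPM. Other genes of that list were low: NPR3 lay at 0 to 0.150 CPM in all libraries and RCVRN at 0.144 to 2.00 CPM in D458. MYC was lower in every hairpin library than in every control of its line. It had 2271 to 2894 CPM against 3348 to 3736 CPM in D425, and 2903 to 3753 CPM against 3993 to 4092 CPM in D458. Of 6 tested fibroblast markers, 5 rose with D458 sh7, 4 with D458 sh8 and 2 with each D425 hairpin. With the block, 3 rose with D425 sh8, and the other counts were the same. COL1A1 and LUM, which encode matrix proteins, rose in all 4 comparisons, and DCN, another matrix protein, and PDGFRB, a growth factor receptor, rose with both D458 hairpins. In D425, LUM lay near the floor, at 0, 0.0373 and 0 CPM in controls and 0.233 to 1.12 CPM in hairpin libraries. The list was not uniform: COL1A2 had 0.188, 0.130 and 0.0850 CPM with D458 sh8, against 0.400, 0.195 and 0.0834 CPM in D458 controls. The 7 markers of the list summed to 34.4 to 55.8 CPM in D458 sh7 and 32.3 to 60.9 CPM in D458 sh8, against 6.89 to 8.44 CPM in D458 controls, and to 43.2 to 85.5 CPM in D425 sh6 and 51.3 to 96.0 CPM in D425 sh8, against 18.6 to 33.6 CPM in D425 controls. PDGFRA and COL3A1 were at 0 in all D458 controls, and at 0.0376 to 0.144 CPM and 0 to 0.288 CPM in D458 hairpin libraries. Of 9 tested Group 3 and photoreceptor genes, 1 rose and 1 fell with D458 sh7, 1 rose with D458 sh8, 2 rose and 1 fell with D425 sh6, and 3 rose and 2 fell with D425 sh8. With the block, 1 rose and 2 fell with D458 sh7, and 2 rose and 1 fell with D458 sh8. In that fit 2 rose and 3 fell with D425 sh6, and 4 rose and 3 fell with D425 sh8. Of 2 tested immune cell markers, PTPRC rose with D458 sh7, at 0.188 CPM on average against 0.0139 CPM in controls. The 1 tested endothelial marker, KDR, rose with D425 sh6 and sh8, by 1.06 and 1.33, and the 1 tested glial marker, GFAP, did not pass. The part of these markers in the histone result was not tested.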

How the data were processed

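The deposited table holds raw counts per gene symbol for 18 libraries. Per the submitters' processing notes, HTSeq, TopHat2 with Bowtie2, Picard, SAMtools, FastQC and bcl2fastq were used with GRCh37/hg19; versions, the strand setting and the treatment of reads with several matches are not stated there. Library totals were 21260369 to 31552051 counts, so a library with 0 counts of a gene allows up to 3 counts, and this covers counting error only.

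Counts were fitted with edgeR 4.0.16 (R 4.3.3, quasi-likelihood, robust, TMM, filterByExpr) in a group-means model of the 18 libraries, leaving 12 residual degrees of freedom, and p-values were adjusted by Benjamini-Hochberg over 14850 genes, with 10519 removed by the filter. The biological coefficient of variation was 15.3%. The standard error of a log2 change is its size divided by the square root of F. The fit was tested on simulated counts with 1 spread for all genes. They held no effect shared by replicate number, so that case was not covered. Same-numbered libraries share a tag in the labels' descriptions and, within a line, a date (replicates 2 and 3 have the same date). The mean correlation of their deviations was 0.30 in D425 and 0.35 in D458, against -0.14 and -0.17 between different numbers. In D425, numbers 2 and 3 did not pair hairpin with control libraries. There sh6 replicates 2 and 3 correlated at 0.148 and 0.0843 with their own control, and at 0.197 and 0.191 with the other of the 2. For sh8 replicates 2 and 3 it was 0.139 and 0.100, against 0.186 and 0.195. In D458 each of these correlations was higher with the own control. The replicate block within line (8 residual degrees of freedom) is given beside results that it changed. Alternatives were RLE factors, DESeq2 1.42.0, no filter, each line alone and leaving out replicates.

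CPM values are TMM-scaled. Transcripts came from GENCODE 29 (GRCh38) and promoters from RefSeq (GRCh38.p14), with no coordinate converted. The members and gene lists were chosen with earlier results of these data known. Named were, per histone type, the 3 genes of highest mean level, all called genes, genes outside HIST1, and up to 4 called genes of each other list with the smallest adjusted p.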

Additional observations from a re-analysis of the deposited data

Results flagged for a closer look

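The effect of sh8 differed between the lines for 2 histone genes in the edgeR fit with the replicate block. The sh8 change in D458 minus that in D425 was 0.97 ± 0.23 on the log2 scale for HIST1H1C (adjusted p = 0.00762) and 0.62 ± 0.11 for HIST1H2BK (adjusted p = 0.000995). Without the block the differences were 0.99 ± 0.56 (adjusted p = 0.267) and 0.67 ± 0.53 (adjusted p = 0.443). The D458 change of HIST1H2BK itself did not pass in replicates 2 and 3 with the block (0.14, adjusted p = 0.314). HIST1H2BK shares most of its sequence windows with other genes, and the part of such reads in its difference was not tested.

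HIST1H2AB, an H2A gene that missed the count rule, had counts above those of the controls. Its counts were 10, 8 and 6 in D458 sh7 libraries, 24 in all, and 9, 6 and 7 in D458 sh8 libraries, 22 in all, against 4, 2 and 1 in D458 controls. Each hairpin library lay above each control, and no test was made at these counts.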

How the results depend on the processing

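Counts of called histone genes depended on the fit. The replicate block gave 14 for D458 sh7, 15 for D458 sh8, 6 for D425 sh8, 1 for D425 sh6 and 2 for the sh8 difference, where the fit without it gave 5, 4, 1, 0 and 0. The block on replicates 2 and 3 only, added after the data were seen, gave 2 for D458 sh8, 6 for D425 sh8, 4 for D425 sh6 and 2 for the sh8 difference. Each line alone gave 1 for D458 sh7, 2 for D458 sh8, 3 for D425 sh8 and 1 for D425 sh6. DESeq2 gave 8 for D458 sh8 and 2 for D425 sh8, and no filter gave 0 for D425 sh8. Leaving out replicates gave 0 to 6 for D458 sh7, 0 to 9 for D458 sh8, 0 to 3 for D425 sh8, 0 to 2 for D425 sh6, 0 to 2 for the sh8 difference, 1 to 8 for the controls, and 0 to 0 for sh8 against sh7 and sh8 against sh6. The log2 ratio of the summed levels then ranged over 0.31 to 0.88 for D458 sh7, 0.20 to 0.93 for D458 sh8, -0.02 to 0.23 for D425 sh8 and -0.20 to -0.02 for D425 sh6. Without HIST1H2BK it was 0.34 for D425 sh8 and 0.0657 for D425 sh6, and without genes with near-identical copies 0.0553 for D425 sh6. The cause of these shifts was not tested, and none of the called values in these alternatives changed sign. Most of the 42 genes lie under 1 CPM, which limits what single genes can show.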
